A study of Mus musculus with 6 samples.

Results

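The RAS-RAF-ERK cascade was followed through 7 mouse genes, Nras, Hras, Braf, Map2k1, Map2k2, Spred1 and Dusp6, out of 19978 genes in the deposited expression table. They were chosen by gene name, as GTPases, kinases and inhibitors of the cascade, with their levels and fold changes in these same libraries already known. Their differences between genotypes are therefore described with errors but without a test. Transcripts were measured by low-input RNA-seq (Smart-seq2) in 100 hematopoietic stem cells (HSCs) per library, sorted from mouse bone marrow. There were 3 wild-type (WT) libraries and 3 from mice with the genotype Piezo1 cKO, a conditional knockout of the mechanically gated channel Piezo1. They are called WT 1 to 3 and cKO 1 to 3 here. Strain, age, the Cre driver and the number of mice behind each genotype were not stated in the labels, so the spread between libraries may be technical.

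In this cascade, growth factor and cytokine receptors load the small GTPases of the RAS family with GTP. RAS then recruits RAF kinases, which phosphorylate the MEK kinases (Map2k1 and Map2k2), which in turn activate the ERK kinases. SPRED proteins hold RAS back together with neurofibromin, and the phosphatase DUSP6 switches ERK off. In blood stem and progenitor cells the cascade carries signals from cytokine receptors such as KIT, and activating RAS mutations are found in myeloid leukemias, chronic myelomonocytic leukemia among them.

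Spred1 was the member whose level separated the genotypes: it was at an FPKM of 1.10 or less in every WT library and at 12.2 or more in every library labelled Piezo1 cKO. Nras was the most abundant member in 5 of the 6 libraries, the exception being cKO 2 with more Map2k1, and ranged in FPKM from 33.0 to 5903, with its highest values in the 2 shallowest libraries, both WT. Hras, Braf and Map2k2 each reached an FPKM of 5 in a single library, always one labelled cKO, and Map2k1 was high in 2 labelled cKO libraries and intermediate in 1 WT library. Dusp6 stayed below an FPKM of 5 in all 6 libraries. FPKM is the number of sequenced fragments scaled to transcript length and library depth, so it can be compared between genes.

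Total counts were 18035239, 64794532 and 3907259 across WT 1 to 3, and from 31252820 to 72116120 in the libraries labelled Piezo1 cKO 1 to 3. The 100 most abundant genes held 76.1% of the counts of WT 3, 46.1% of those of WT 1 and between 29.8% and 31.7% of those of every other library. Piezo1 itself did not follow the labels: its FPKM was 0.539, 3.97 and 1.57 across WT 1 to 3, and 0.175, 8.81 and 0.819 across cKO 1 to 3, so the direction of every difference rests on the labels. Of 12 HSC markers, 2, 9 and 3 reached an FPKM of 1 across WT 1 to 3, and 5, 7 and 7 across cKO 1 to 3. Mecom was listed at 0 in WT 3 and Slamf1 at 0 in cKO 1. The summed FPKM of 10 erythroid markers was 10148 to 22802 in WT and 2052 to 3015 in cKO, without overlap. Klf1 was listed at 0 in WT 2, WT 3 and cKO 3, and Epor in WT 1, WT 3, cKO 2 and cKO 3. The summed FPKM of 12 granulocyte and monocyte markers overlapped, at 849.7 to 29893 in WT and 889.9 to 37060 in cKO.

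**Figure D1:**
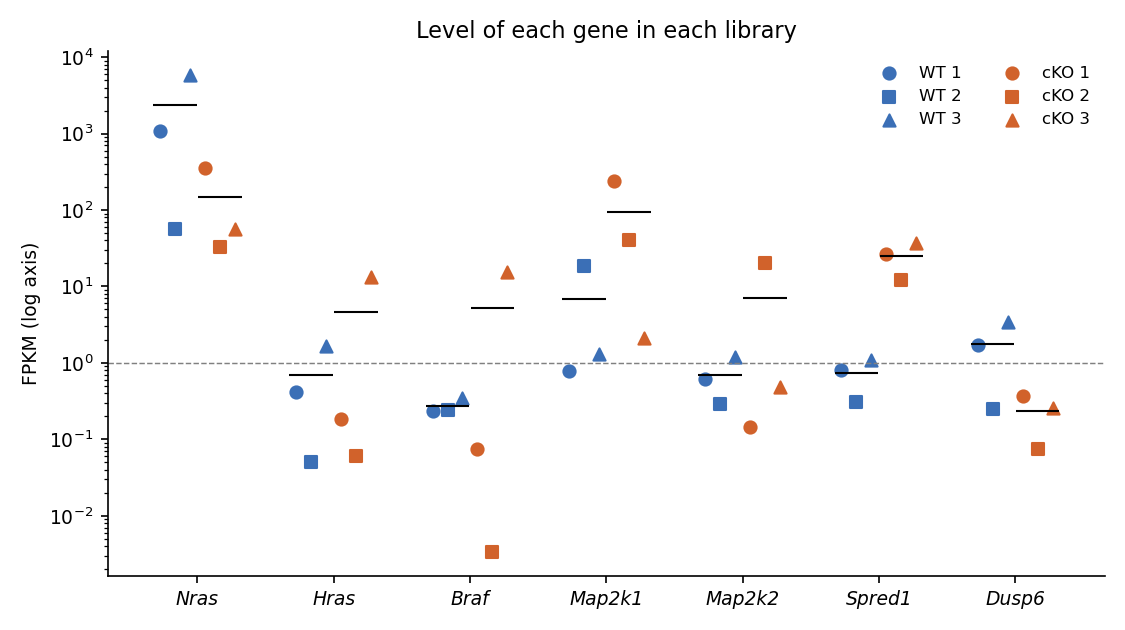
FPKM of the 7 genes in each library, on a log axis. Blue points are WT and orange points labelled Piezo1 cKO libraries, the shape gives the library number, black lines are group means of 3 libraries, and the dashed line marks an FPKM of 1. Only the points of Spred1 separate by genotype, with WT at 1.10 or less and cKO at 12.2 or more.

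Nras and Hras encode near-identical GTPases that differ mainly in their carboxy-terminal tail, where lipid anchors fix them to membranes. Map2k1 and Map2k2 encode the MEK1 and MEK2 kinases. Because reads of such related genes could be assigned to the wrong copy, their coding sequences from GENCODE M21 were aligned. Nras and Hras shared 75.7% of aligned coding positions, with a longest identical run of 23 bases. Map2k1 and Map2k2 shared 76.4%, with a run of 56 bases. The last 75 coding bases, stop codon included, are shown 5′ to 3′ to let the members of each pair be compared base by base, with capitals at bases that differ from the relative or face a gap in the alignment.
Nras: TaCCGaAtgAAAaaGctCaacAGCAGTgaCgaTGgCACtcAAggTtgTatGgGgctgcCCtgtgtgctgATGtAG
Hras: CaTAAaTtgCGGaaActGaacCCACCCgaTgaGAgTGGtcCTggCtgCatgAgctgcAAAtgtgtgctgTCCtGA
Map2k1: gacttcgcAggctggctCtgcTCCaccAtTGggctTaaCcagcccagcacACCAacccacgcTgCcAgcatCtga
Map2k2: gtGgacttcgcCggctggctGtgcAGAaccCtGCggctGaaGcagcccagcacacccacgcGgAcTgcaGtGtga
In these stretches 35 bases were marked in Nras and in Hras, 18 in Map2k1 and 16 in Map2k2. Over the whole transcript, none of the 50-base windows of Hras, Spred1 or Dusp6 occurred in a transcript of another gene. In Map2k1 and Map2k2, 7 windows each were shared, all with one another, which is 0.293% and 0.297% of their windows. Nras shared 38 of its 4421 windows (0.86%) with transcripts of 160 other genes. Braf shared 97 (1.00%) with Ndufb2.

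Nras (ENSMUSG00000027852; chromosome 3, 103058285 to 103067914, plus strand) had an FPKM of 1093, 56.2 and 5903 across WT 1 to 3, and 352.5, 33.0 and 55.8 across cKO 1 to 3. Its counts were 125337, 21687 and 172201 in WT and 70280, 14013 and 23127 in cKO. WT 3, the shallowest library, held the most Nras reads, and WT 2 lay within the range of the labelled cKO libraries, so the groups overlapped. Ordered by FPKM, Nras was the 10th gene of WT 3 and the 112th of WT 1, but only the 1144th of WT 2. In WT 3 it took 4.41% of all counts, against 0.0335% in WT 2.

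The group means of Nras were 2351 ± 3120 in WT and 147.1 ± 178.2 in cKO (FPKM, SD, n = 3). The log2 fold change of cKO over WT was -3.51 ± 1.33 (SE, edgeR). It was -1.90 without WT 3 and -7.97 without cKO 1, and leaving out each other library gave -4.08 to -3.04. It was 1.88 without WT 1 and WT 3, which left WT 2 as the lone WT library. With the total count as a covariate it was 0.18, or -0.26 relative to the median of all tested genes in that fit. The value without WT 1 and WT 3 rests on a lone WT library and sets no direction. The part of library depth in the Nras difference was not tested.

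The profile of Nras over the libraries was compared with those of 3686 named genes that passed the filter on low values, by the root mean square difference of centred log2(FPKM + 1). The nearest were Arap3 at 0.22 and Atoh1 at 0.24. Arap3 encodes a GTPase-activating protein for small GTPases outside the RAS family, and Atoh1 a transcription factor best known from sensory hair cells and intestinal secretory cells. Arap3 had an FPKM of 410.2, 24.4 and 3326 across WT 1 to 3, and 191.6, 12.4 and 23.4 across cKO 1 to 3. Atoh1 had 711.8, 23.0 and 2500 across WT 1 to 3, and 150.3, 12.6 and 25.3 across cKO 1 to 3. The ratio of Nras to Arap3 stayed between 1.77 and 2.67, and that of Nras to Atoh1 between 1.54 and 2.61, while Nras itself varied 179-fold. None of the 50-base windows of the Nras transcript occurred in a transcript of Arap3 or Atoh1 (0 in each). Within a difference of 0.5, a limit taken after the values were seen, lay 13 genes (0.353%), which included Plb1, Hsf5 and L3mbtl3.

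Ampd1, which lies 6099 bases from Nras, did not exceed an FPKM of 0.148 in any library. Of the genes within 10 kb of another member and not overlapping it, Rpl4 and Snapc5 near Map2k1 reached 1249 and 127.5, and the rest stayed at 3.48 or less.

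**Figure D2:**
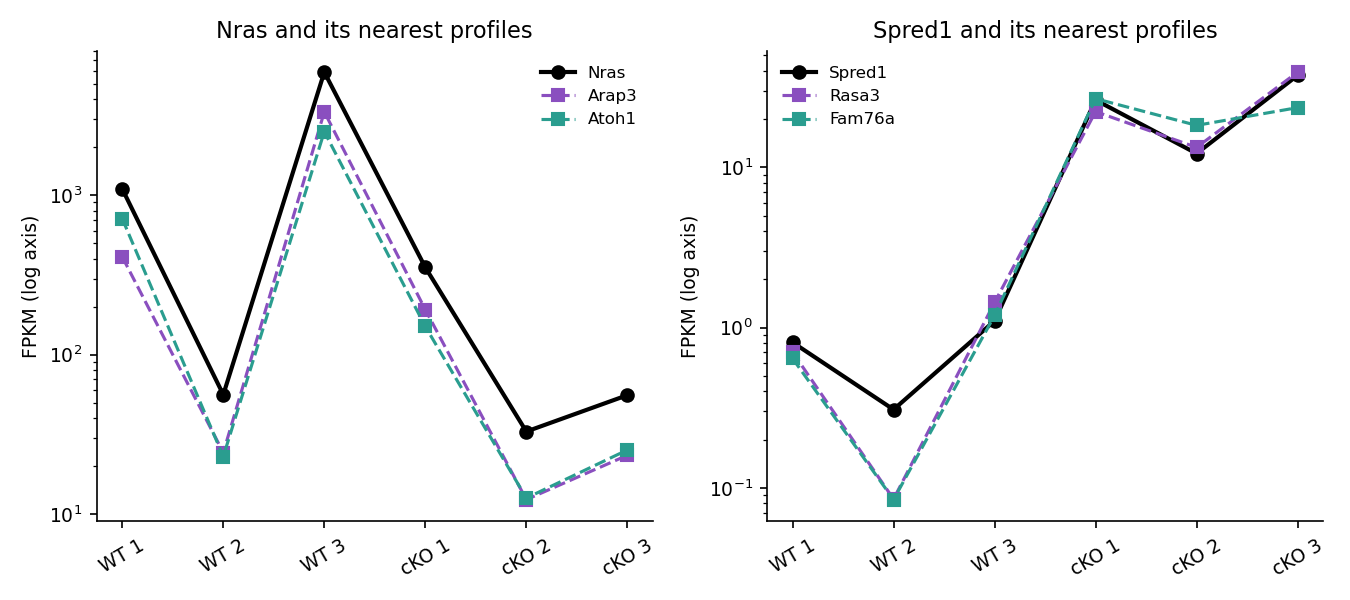
FPKM over the 6 libraries, on log axes, of Nras (left) and Spred1 (right) with the 2 genes of nearest profile. Arap3 and Atoh1 run parallel to Nras with ratios from 1.54 to 2.67, and Rasa3 follows Spred1 apart from WT 2.

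Hras (ENSMUSG00000025499; chromosome 7, 141189105 to 141194005, minus strand) had an FPKM of 0.421, 0.0499 and 1.64 across WT 1 to 3, and 0.185, 0.0602 and 13.5 across cKO 1 to 3. cKO 3 stood alone with 3914 counts, while the other 5 libraries held 14 to 34. The groups overlapped, with cKO 1 and cKO 2 inside the WT range. The means were 0.705 ± 0.834 in WT and 4.57 ± 7.70 in cKO (FPKM, SD, n = 3). The log2 fold change was 4.69 ± 3.18 (SE) and became -0.39 without cKO 3.

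Nras exceeded Hras in every library, by a ratio of FPKM of 548 or more in 5 libraries and of 4.14 in cKO 3. The gap was narrowest in cKO 3, the library where Hras peaked.

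Braf (ENSMUSG00000002413; chromosome 6, 39603237 to 39725463, minus strand) encodes the RAF kinase with the highest basal activity. Its FPKM was 0.236, 0.244 and 0.348 across WT 1 to 3, and 0.0758, 0.00338 and 15.5 across cKO 1 to 3. As for Hras, a single library carried the gene: cKO 3 held 16720 counts, whereas cKO 2 held 4 counts among 72116120. The groups overlapped in an uncommon way, since the WT libraries lay close together and the labelled cKO libraries lay on both sides of them.

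The group means of Braf were 0.276 ± 0.0624 in WT and 5.19 ± 8.93 in cKO (FPKM, SD, n = 3), and its log2 fold change was 5.76 ± 3.37 (SE). Without cKO 3 it was -1.31. Braf overlaps Ndufb2, a gene for a subunit of respiratory complex I, by 146 bases on the opposite strand, and strand use in counting is not stated, so reads from the overlap cannot be told apart. Ndufb2 had an FPKM of 119.5, 70.6 and 1.13 across WT 1 to 3, and 47.0, 69.0 and 43.0 across cKO 1 to 3, which did not follow Braf. The related kinase gene Araf was highest in WT 2, at an FPKM of 14.2, and so peaked in another library than Braf.

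Map2k1 (ENSMUSG00000004936; chromosome 9, 64185770 to 64253631, minus strand) had an FPKM of 0.791, 18.5 and 1.32 across WT 1 to 3, and 242.0, 40.3 and 2.102 across cKO 1 to 3. Both highest values came from labelled cKO libraries, but cKO 3 fell below WT 2, so the groups overlapped. Counts ran from 25 in WT 3 to 30699 in cKO 1. The means were 6.87 ± 10.1 in WT and 94.8 ± 128.9 in cKO (FPKM, SD, n = 3). The log2 fold change was 4.33 ± 2.65 (SE), and it was positive under all 15 other ways of processing, from 1.35 without cKO 1 to 6.85 without WT 2. Uchl4, which overlaps Map2k1 by 1162 bases on the opposite strand, reached an FPKM of 12.3 in WT 2 and 2.56 in cKO 3, and stayed below 0.5 in the other 4 libraries.

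Map2k2 (ENSMUSG00000035027; chromosome 10, 81105915 to 81133975, plus strand) had an FPKM of 0.611, 0.292 and 1.21 across WT 1 to 3, and 0.146, 20.3 and 0.480 across cKO 1 to 3. cKO 2 alone carried it, with 9162 counts against 32 to 214 elsewhere, and the other labelled cKO libraries lay within or below the WT range. The means were 0.703 ± 0.464 in WT and 6.98 ± 11.5 in cKO (FPKM, SD, n = 3), with a log2 fold change of 5.27 ± 3.36 (SE). It was 0.52 without cKO 2.

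The ratio of Map2k1 to Map2k2 in FPKM was 1.29, 63.2 and 1.09 across WT 1 to 3, and 1661, 1.99 and 4.38 across cKO 1 to 3. Map2k1 was therefore the more abundant MEK transcript in each library, by a margin that varied from slight in WT 1 and WT 3 to large in cKO 1. Downstream, the ERK1 gene Mapk3 did not exceed an FPKM of 2.98, in WT 3.

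Spred1 (ENSMUSG00000027351; chromosome 2, 117121374 to 117182279, plus strand) had an FPKM of 0.810, 0.308 and 1.10 across WT 1 to 3, and 26.4, 12.2 and 37.6 across cKO 1 to 3. Its counts were 119, 152 and 41 in WT and 6687, 6598 and 19835 in cKO. All 3 labelled cKO libraries were above all 3 WT libraries, and the lowest cKO value was 11.1 times the highest WT value. The deepest WT library, WT 2, had the lowest FPKM. The means were 0.740 ± 0.402 in WT and 25.4 ± 12.7 in cKO (FPKM, SD, n = 3).

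The log2 fold change of Spred1 was 5.39 ± 2.92 (SE), and it was positive under all 15 other ways of processing, from 3.19 without cKO 1 to 6.75 without the filter. Without WT 1 and WT 3 it was 6.66. A ratio of lowest cKO to highest WT at least as high as that of Spred1 was found for 28 of the 4173 tested genes, Spred1 included, and the reverse ratio at least this high for 11. Genes can pass the filter through the 3 libraries of 1 genotype alone, which favours such ratios. Since Spred1 was chosen with its values known, nothing is read from its place among these genes. The summed erythroid markers also separated the genotypes, in the opposite direction, and their part in the Spred1 difference was not tested. In these bulk samples, fewer cells that express a gene and less of its RNA per cell cannot be told apart.

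The gene nearest to Spred1 in profile was Rasa3, at a root mean square difference of 0.18, followed by Fam76a at 0.36. Rasa3 encodes a GTPase-activating protein that turns RAS and RAP1 off. Its FPKM was 0.703, 0.0851 and 1.44 across WT 1 to 3, and 22.3, 13.3 and 39.3 across cKO 1 to 3, without overlap. Rasa3 was picked here for its likeness to Spred1, so this separation follows from that choice and nothing further is read from it. The ratio of Spred1 to Rasa3 lay between 0.768 and 1.18 in 5 libraries and was 3.62 in WT 2, where both were low. The likeness was ranked over 3686 named genes, of which 5 (0.136%) lay within a difference of 0.5 of Spred1. The other 7 genes of RAS GTPase-activating proteins in the table did not pass the filter. Rasa2 was at 0.0892 or less in WT and at 9.38, 0.00456 and 12.4 across cKO 1 to 3, so 2 labelled cKO libraries were high as for Spred1 and cKO 2 was not. Nf1, the gene of the neurofibromin that SPRED1 brings to RAS, was at an FPKM of 0.172, 1.01 and 0.176 across WT 1 to 3, and 0.0510 or less in cKO, and Rasa1 was highest in WT 2 at 14.6. Dab2ip reached 2.68 in cKO 3, and Rasa4, Rasal1 and Rasal2 stayed at 0.522 or less.

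The promoters of Spred1 and Nras, the member that separated the genotypes and the most abundant one, are shown from 250 bases before to 50 after the RefSeq gene start (GRCm38.p6), with capitals at the GC box GGGCGG on either strand. They lie at chr2:117120821-117121120 and chr3:103058035-103058334, both on the plus strand.
Spred1: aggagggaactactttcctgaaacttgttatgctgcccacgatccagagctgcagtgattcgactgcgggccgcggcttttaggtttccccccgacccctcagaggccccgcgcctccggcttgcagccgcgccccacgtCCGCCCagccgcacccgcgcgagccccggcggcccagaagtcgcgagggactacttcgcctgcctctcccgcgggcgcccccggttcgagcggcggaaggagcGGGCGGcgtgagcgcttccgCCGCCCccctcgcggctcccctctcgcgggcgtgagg
Nras: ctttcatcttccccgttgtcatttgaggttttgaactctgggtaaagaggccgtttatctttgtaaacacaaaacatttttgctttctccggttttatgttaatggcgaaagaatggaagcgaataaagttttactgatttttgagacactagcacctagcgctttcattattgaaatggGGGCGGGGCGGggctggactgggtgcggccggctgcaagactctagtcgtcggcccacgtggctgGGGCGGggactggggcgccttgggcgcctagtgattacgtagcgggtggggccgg
The GC content was 72.3% for Spred1 and 52.3% for Nras, and each held 3 GC boxes, 2 of which overlap in Nras. At least 1 GC box was found in 6 of the 7 members, Dusp6 being without, and in 35.66% of 32851 mouse promoters of the same length. The median GC content of those promoters was 52.7%, and every member except Nras lay above it, at 57.3% to 72.3%. The shares were not matched for GC content. The cAMP response element TGACGTCA was found in Braf alone (1.79% of promoters) and the E box CACGTG in Nras alone (7.15%). The ETS core CCGGAA was found in Hras and Map2k1 (14.9%), and the CCAAT box in Hras, Map2k1 and Dusp6 (37.41%). All motifs were searched on both strands, and no binding was measured here.

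Dusp6 (ENSMUSG00000019960; chromosome 10, 99263231 to 99267489, plus strand) is itself induced by ERK and serves as a readout of pathway activity in many cell types. Its FPKM was 1.72, 0.251 and 3.39 across WT 1 to 3, and 0.364, 0.0747 and 0.259 across cKO 1 to 3. WT 1 and WT 3 were above every labelled cKO library, but WT 2 lay inside the cKO range, so the groups overlapped. Counts were low throughout, from 20 in cKO 2 to 117 in WT 1. WT 3 held 59 counts and cKO 3 held 65, so the FPKM difference between them came with similar counts at different totals.

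The means of Dusp6 were 1.79 ± 1.57 in WT and 0.233 ± 0.146 in cKO (FPKM, SD, n = 3). Its log2 fold change was -1.12 ± 1.88 (SE). With the total count as a covariate it was 0.07, or -0.83 relative to the median of that fit. The nearest profile belonged to Rbm39, at a difference of 0.14, a splicing gene whose FPKM was 243.6, 114.7 and 361.8 across WT 1 to 3, and 99.3, 99.1 and 93.1 across cKO 1 to 3. Within 0.5 of Dusp6 lay 129 named genes (3.50%), more than for any other member, of which Map2k1 had the fewest at 3 (0.0814%).

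For the remaining members, the nearest profiles were Lars and Ctsh for Hras, Utp14a and Sec14l1 for Braf, Chordc1 and Trp53 for Map2k1, and Lcp1 and Ube2o for Map2k2. Their differences ranged from 0.18 for Lars and Lcp1 to 0.44 for Trp53. Each shared the peak library of its member: cKO 3 for Lars at an FPKM of 15.6 and Utp14a at 32.1, cKO 2 for Lcp1 at 41.9, and cKO 1 for Chordc1 at 119.0 and Trp53 at 201.4. Likeness was measured over the same 6 libraries for every gene, so a shared peak follows from how these genes were chosen.

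A level confined to a single library was common in the table. Of 7456 genes that reached an FPKM of 5 in at least 1 library, 46.3% did so in exactly 1, as did Hras, Braf and Map2k2. Map2k1 and Spred1 reached it in 3 libraries, as 13.5% did, and Nras in all 6, as 4.92% did. By library, 2, 2 and 6 of the 7 members reached an FPKM of 1 across WT 1 to 3, and 3, 4 and 5 across cKO 1 to 3. WT 3, where 6 members passed, had 25 to 59 counts for each of them except Nras, at its low total.

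An FPKM of at least 1 in at least 3 libraries was required for the tests, which left 4173 genes. Of the members, Nras passed with 6 libraries, Map2k1 with 5 and Spred1 with 4, while Hras, Braf, Map2k2 and Dusp6 did not pass. The fold changes of those 4 come from a fit over all 19978 genes, whose median log2 fold change was 0.17. That of the filtered fit was 1.10, with 67.9% of genes above 0, and median-of-ratios scaling moved it to 0.52. Relative to the median, the fold changes were -4.61 for Nras, 3.22 for Map2k1 and 4.29 for Spred1.

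edgeR's quasi-likelihood test with Benjamini-Hochberg adjustment called 0 of the 4173 genes (0%) at 0.05, with 0% in each direction and 6.88% at an unadjusted level of 0.05, and therefore called no member. limma on log2(FPKM + 1) also called 0, with 199 genes at an unadjusted level of 0.05. DESeq2 called 7.14% of the tested genes, 3.24% as higher in cKO. The genotypes did not overlap in FPKM for 11.6% of the tested genes, 6.37% higher and 5.18% lower in cKO, and for 1 of the 3 tested members, Spred1. Since these contrasts were known when the members were chosen, nothing is read from these counts.

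**Figure D3:**
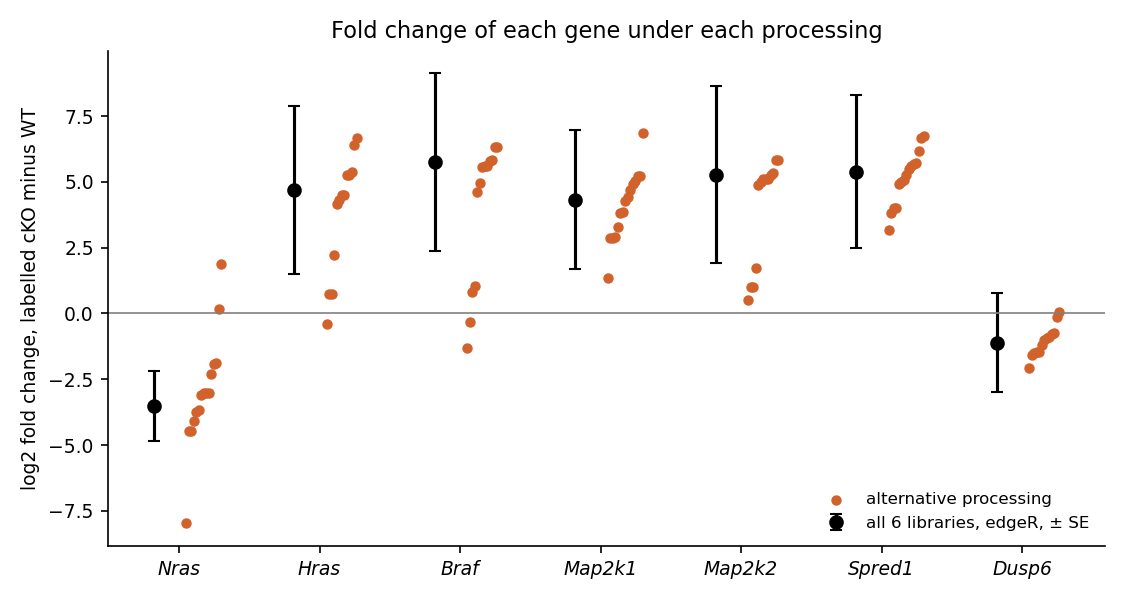
Log2 fold change of labelled cKO over WT for each gene. Black points are edgeR fits to all 6 libraries with their standard errors, and orange points the same value under other processing or with libraries left out. Spred1, Map2k1 and Map2k2 are above 0 under each, whereas Nras ranges from -7.97 to 1.88 and Braf from -1.31 to 6.35.

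The rest of the pathway was described through 12 lists of 142 genes, of which 131 were in the table. Of the 124 that are not members, 43 were tested, and edgeR called none in either direction (0 of 43, smallest adjusted p = 0.692 in edgeR's quasi-likelihood test with Benjamini-Hochberg adjustment). Unadjusted values below 0.05 were found for 3 of the 43, Elk3, Crkl and Myc, beside 6.88% of all tested genes. The median log2 fold change of the 43 was 0.91, below the 1.10 of all tested genes, with 30 of 43 above 0 and 20 above that median. DESeq2 called 2 of the 43 (4.65%), Fosb and Myc, beside 7.14% of all tested genes. It gave no adjusted value for 752 tested genes, Crkl and Elk3 among them. The genotypes did not overlap for 8 of the 43 (18.6%), 6 of them higher in cKO, beside 11.6% of all tested genes. The lower ones, Myc and Elk3, passed the filter through WT libraries alone, so they could not overlap.

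Upstream of RAS, the IGF1 receptor gene Igf1r was at an FPKM of 0.106, 18.4 and 0.166 across WT 1 to 3, and 13.5, 10.3 and 15.5 across cKO 1 to 3, with WT 2 above every labelled cKO library. Among adaptors, Crkl stood at 237.2 in WT 1 and at 6.34 or less in the other libraries (-6.20 ± 2.86, SE), and Grb2, which links receptors to exchange factors, was highest in cKO 1 at 23.4.

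Of the other RAS-family GTPases, Rras was at 115.6 in cKO 3 and at 4.24 or less elsewhere. Rap1b, which is abundant in platelets, reached 1401 in WT 1 and 436.8 in cKO 2, and Rap1a 60.6 in WT 2 and 114.5 in cKO 2. The processing enzymes Rce1 and Fnta were highest in WT 2 (24.7) and cKO 2 (85.7) respectively. Of the phosphatase complex that activates RAF, Shoc2 did not exceed 4.66, in cKO 3, whereas its catalytic subunits Ppp1ca and Ppp1cc reached 379.9 in cKO 2 and 22.2 in WT 2. Of these 8 genes, Rap1b and Ppp1ca were at an FPKM of at least 5 in all 6 libraries.

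The 14-3-3 proteins bind RAF kinases. Of their genes, Ywhab was at 2.31, 37.3 and 6.77 across WT 1 to 3, and 377.8, 63.7 and 72.7 across cKO 1 to 3, without overlap. Ywhaq was highest in cKO 2 at 260.4 and Ywhag in cKO 3 at 20.7, and both overlapped. Beside Spred1, the inhibitor Spry2 had 10.7, 1.60 and 3.20 across cKO 1 to 3 and at most 2.24 in WT, and Spred2 reached 5.81 in cKO 3 and at most 1.19 elsewhere. Spry1, which did not pass the filter, was at 0.302, 20.2 and 0.962 across WT 1 to 3 and at 0.0866 or less in cKO. It did not overlap, in the direction opposite to Spred1, but WT 2 alone carried it, with 4241 counts against 4 to 19 elsewhere. Spry4 and Spred3 stayed at 0.368 or less. Of the phosphatases, Dusp2 ranged from 0.662 in WT 3 to 420.2 in WT 1, and Dusp5 from 0 in cKO 3 to 64.3 in cKO 1. The ERK effector kinase Mknk2 was highest in WT 2, at 8.498.

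Of 11 tested genes that ERK signalling is known to induce or act on, 6 did not overlap between genotypes, beside 11.6% of all tested genes. A gene that passed the filter only through the 3 libraries of 1 genotype cannot overlap. Myc and Elk3 passed through WT alone, so their separation was fixed by the filter, and such genes also count in the 11.6%. Fosb was at 0.226, 9.61 and 0.293 across WT 1 to 3, and 59.7, 17.8 and 46.6 across cKO 1 to 3. Fosl2, Junb and Mcl1 were also higher in each labelled cKO library, with log2 fold changes of 3.80 ± 2.59, 2.05 ± 2.51 and 2.83 ± 2.24 (SE). Myc and Elk3 were lower in each labelled cKO library. Myc stood at 1.57, 120.8 and 3.02 across WT 1 to 3 and at 0.552 or less in cKO. Elk3 stood at 189.5, 3.80 and 1.20 across WT 1 to 3 and at 0.501 or less in cKO. Without WT 2 the separation of Myc, and without WT 1 that of Elk3, would rest on an FPKM of 3.80 or less. The genotypes overlapped for Egr1, Fos, Jun, Ier2 and Ccnd1, with log2 fold changes from -0.56 for Fos to 2.99 for Egr1. Fos was highest in WT 1, at 2092, and Egr1 in cKO 1, at 626.1.

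**Figure D4:**
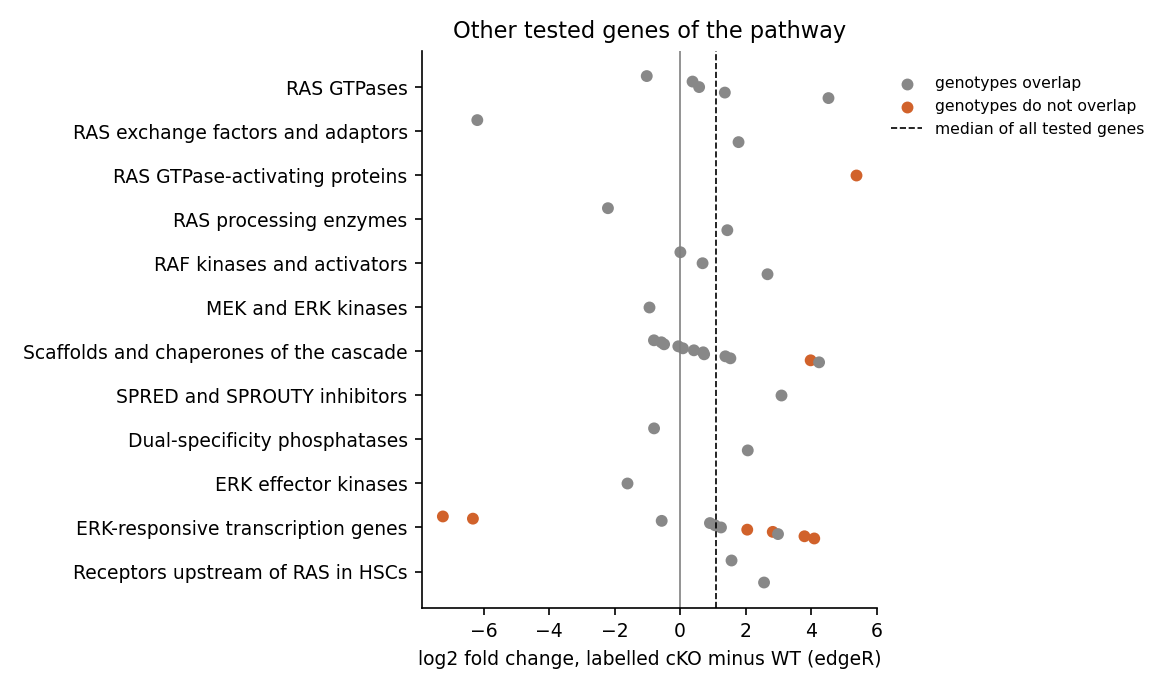
Log2 fold change of labelled cKO over WT (edgeR) for the 43 tested pathway genes that are not members, by list. Orange points are genes whose FPKM does not overlap between genotypes, 8 in all and 6 of them ERK-responsive, and the dashed line is the median of all tested genes at 1.10. Of the orange points, Myc and Elk3 passed the filter through WT libraries alone, so they could not overlap.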

How the data were processed

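Counts and FPKM were taken from the table deposited by the authors, which holds raw counts per gene and FPKM values scaled by the authors to transcript length and depth. Per the labels' protocols, RNA of 100 sorted cells was copied by oligo(dT) priming and template switching and amplified, with no molecular identifiers, so counts are reads or fragments and not molecules. The submitters' processing notes name the build GRCm39 and the tools HISAT2 2.2.1, StringTie 2.1.6, cutadapt 1.9, edgeR and DESeq2, without their roles. The deposited coordinates of 17584 of 19953 genes matched by identifier, the 7 members included, equal those of GENCODE M21 on GRCm38, so coordinates are read as GRCm38. Whether counting used strand is not stated there.

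The members, gene lists and tests were chosen with earlier results of these data known. Genes with 3 or more libraries at an FPKM of 1 or above were fitted with edgeR 4.0.16 (quasi-likelihood, TMM scaling, genotype as the only term, R 4.3.3), and members that failed this filter were read from a fit without it. Standard errors were derived from the F statistic, as the fold change divided by its square root. limma 3.58.1 on log2(FPKM + 1) and DESeq2 1.42.0 were alternatives. The fits were tested on simulated data. The genes named were the members, up to 3 tested genes per list with the smallest p, the 2 nearest profiles of each member, and neighbours within 10 kb. Further genes (Araf, Mapk3, the remaining RAS GTPase-activating, SPRED and SPROUTY genes, the remaining tested ERK-responsive genes, Plb1, Hsf5 and L3mbtl3) were named after their values were seen. A few genes that met the rule are not reported here. Total counts ranged from 3907259 to 72116120. Figures were drawn with matplotlib 3.10.9.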

Additional observations from a re-analysis of the deposited data

How the results depend on the processing

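Member fold changes moved by less than the spread between replicates in 76 of 97 recalculations. Spred1, Map2k1 and Map2k2 kept their direction under every alternative run. Nras turned to 0.18 with the total count as a covariate and to 1.88 without WT 1 and WT 3, Hras to -0.39 and Braf to -1.31 without cKO 3, and Dusp6 to 0.07 with the total count. Relative to the median of all genes in the same fit, the values with the total count stayed negative, at -0.26 for Nras and -0.83 for Dusp6. Leaving out single libraries moved Nras from -7.97 to -1.90. The causes of the turns in direction were not tested.

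The count of genes called at an adjusted level of 0.05 was 0 with edgeR and became 298 with DESeq2, 163 without the filter, 2 at a mean FPKM of at least 5 and 1 without WT 1 and WT 3. Leaving out each library in turn gave 0 throughout, as did limma, median-of-ratios scaling and a threshold of 0.1. Pathway genes called were 0 under the edgeR and limma alternatives and 2 with DESeq2.

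Whether the library numbers pair the samples is not stated in the labels. Same-numbered libraries deviated together with r of 0.13, 0.15 and -0.16 across genes, and differently numbered ones with -0.27 to 0.21. With 3 libraries per genotype, these values cannot decide whether the numbers mark pairs. With a replicate block, 0 genes and 0 pathway genes were called, 84 against 287 genes lay below an unadjusted 0.05, and Braf turned to -0.32.

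Low counts limit Hras, Braf, Map2k2 and Dusp6: outside their peak libraries they rest on 4 to 246 reads, counted without molecular identifiers. The WT values of Spred1 likewise rest on 41 to 152 reads, and those of Map2k1 in WT 1 and WT 3 on 58 and 25. A WT group reduced to 1 library is assumed to vary like the labelled cKO group.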
